A study of Danio rerio with 6 samples.

Results

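The regions described here are isolated, narrow H3K27ac peaks of a zebrafish melanoma cell line that were also found in a primary zebrafish melanoma. They were chosen from the cell line peak list as peaks under 1000 bases wide, with no other peak of that list within 25000 bases on either side, that overlapped a tumor H3K27ac peak by 1 base or more. Of 50338 cell line peaks, 48041 were under 1000 bases wide, 3741 of these were lone (lone peaks of any width made up 7.71% of the list), and 1818 of the lone peaks (3.61% of the whole list) overlapped a tumor peak and are called kept lone peaks below. "Kept" refers only to this overlap, since the line and the tumor came from different fish. Width, isolation and the overlap itself chose these regions and are given as descriptions.

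Acetylation of histone H3 at lysine 27 (H3K27ac) is placed on nucleosomes by the acetyltransferases p300 and CBP and marks active promoters and enhancers. The mark lies on the nucleosomes that flank an open site, so 1 element can give a single maximum or several adjacent ones. Long stretches of closely packed peaks are known from strongly active loci, where many elements act around the same gene. A lone peak is the other extreme, a short acetylated site with no other listed peak around it. No gene annotation or genome of the files' build was used here, so sites are given by position, without a gene, a promoter or a sequence.

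Chromatin immunoprecipitation followed by sequencing was done on 2 sources, with 1 library per group. The cell line, zcrest, had been passaged more than 20 times in culture and was derived from a founder labelled p53/BRAF/Na with crestin:EGFP, a neural crest reporter, and MiniCoopR alone (MiniCoopR vectors hold a minigene of mitfa). The tumor arose in a p53/BRAF/Na fish that received the control plasmid MiniCoopR;mitf:EGFP. It was dissected and dissociated in bulk, so its list can hold peaks of other cells of the tumor. The deposited H3K27ac lists held 50338 peaks (19.8 Mb) in the cell line and 59760 peaks (18.0 Mb) in the tumor, and the cell line also had 4202 peaks of the transcription factor sox10. Read depth is unknown from these lists. With no replicates, no test between sources or peak sets was made. The exact intervals given here reflect counting error alone, and peaks near each other are not independent observations.

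The kept lone peaks were spread over all 25 chromosomes. Their number per Mb of the span covered by peaks was 1.34 over the whole genome, with the highest value on chromosome 25 (1.69) and the lowest on chromosome 19 (0.96). They occurred in 961 of 1370 windows of 1 Mb (70.1%), and the fullest windows held 7. The median distance from a kept lone peak to the next was 470 kb (quartiles 184 and 984 kb). The largest was 16381 kb. Spacing of less than 25 kb cannot occur under the rule. Only 12 of the 1818 were the first or last peak of the cell line list on their chromosome, where isolation rests on the absence of a listed peak on 1 side.

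Isolation itself varied widely among them. The nearest cell line peak was between 25015 bases and 676 kb away, with a median of 44.2 kb (quartiles 32.0 and 66.5 kb). Among lone peaks without a tumor peak, called unkept below, the median was 48.9 kb (quartiles 34.1 and 82.3 kb). The most isolated sites were thus more common among the unkept.

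As a share, 48.6% of lone peaks were kept (1818 of 3741, interval 47.0% to 50.2%), against 45.8% of neighboured peaks under 1000 bases wide (20307 of 44300, interval 45.4% to 46.3%). Over the whole cell line list, 47.9% of peaks overlapped a tumor peak, so the share among lone peaks was near that background. Unlike the 2 shares above, this one includes 2297 peaks of 1000 bases or more, of which 85.9% overlapped a tumor peak. The difference of 2.76 percentage points was small, and its size and sign depended on the settings. It was -1.34 when lone meant no neighbour within 50000 bases, and 5.15 with 10000 bases. When peaks within 1000 bases of each other were first joined in both lists it was -1.15. Requiring an overlap of at least 50% of the cell line peak, it was 5.94, and with the cell line summit inside the tumor peak 6.68. With a −log10 q limit of 5 applied after neighbours were counted it was 4.50. Under the rule as given, isolation at 25 kb therefore went with a small difference in how often a site was found in the tumor. The difference was larger where a closer match was required. From the tumor side the shares were also close. Of 4640 lone tumor peaks under 1000 bases wide, 38.2% overlapped a cell line peak (1774, interval 36.8% to 39.6%), against 39.4% of 54450 neighboured tumor peaks (interval 39.0% to 39.8%) and 39.8% of all tumor peaks.

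The distance to the nearest cell line peak showed a hump rather than a slope. The kept share was 44.8% where the nearest peak lay within 1 kb and 45.4% at 1 to 5 kb. It was 51.6% at 5 to 12.5 kb and 52.2% at 12.5 to 25 kb. Among lone peaks it was 51.8% at 25 to 50 kb (1062 of 2052), 48.6% at 50 to 100 kb (545 of 1122) and 37.2% beyond 100 kb (211 of 567, interval 33.2% to 41.3%). The interval of the most isolated sites lay below those of all other distances. These sites were also narrower, with a median width of 235 bases against 285 bases at 25 to 50 kb, and the part of width in the lower share was not tested.

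**Figure D1:**
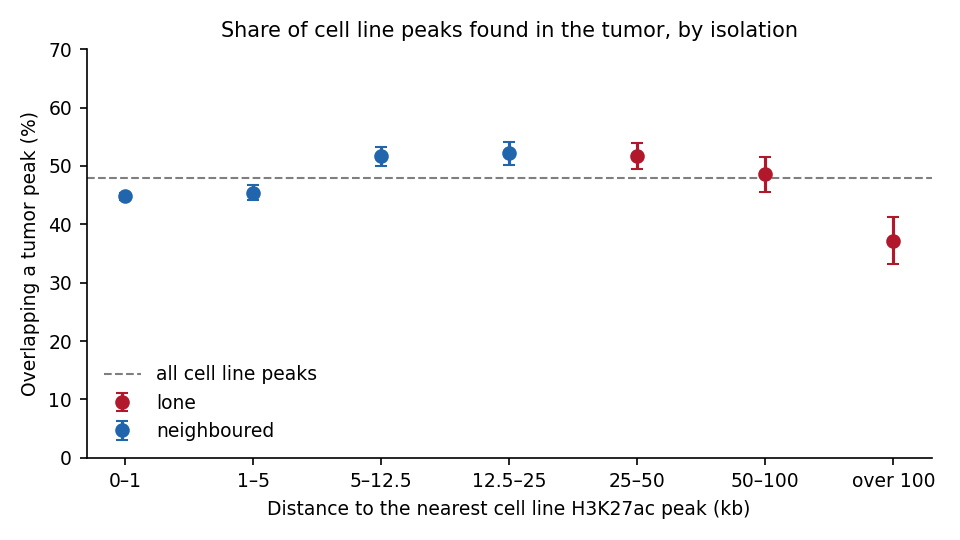
Share of cell line H3K27ac peaks under 1000 bases wide that overlapped a tumor peak (percent, y axis) by the distance to the nearest cell line peak (kb, x axis), for lone (red) and neighboured (blue) peaks. Points are shares with exact 95% intervals. The dashed line is the 47.9% of all cell line peaks, those of 1000 bases or more included. The share is highest between 5 and 50 kb and lowest, at 37.2%, beyond 100 kb.

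Crowding at the other end gave low shares as well. Neighboured peaks with 1 other cell line peak within 25 kb were kept in 49.2% of cases and those with 2 in 50.4%. Peaks with 20 or more such neighbours were kept in 37.7% (1292 of 3424, interval 36.1% to 39.4%). Lone peaks, at 48.6%, stood close to the peaks with 1 or 2 neighbours.

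Width separated kept from unkept lone peaks far more than isolation did. Kept lone peaks had a median width of 370 bases (quartiles 240 and 558), against 212 bases (quartiles 162 and 314) for unkept lone peaks. In the narrowest class, up to 150 bases, 24.0% of lone peaks were kept (101 of 421), and in the widest, over 700 bases, 86.4% (236 of 273). A wider peak has more bases with which to meet a tumor peak, and the part of this in the trend was not tested.

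At equal width, lone peaks over 250 bases were found in the tumor somewhat more often than neighboured ones. From 301 to 400 bases the kept share was 57.9% for lone peaks (342 of 591, interval 53.8% to 61.9%) and 49.2% for neighboured peaks (3464 of 7042, interval 48.0% to 50.4%). From 501 to 700 bases it was 77.1% for lone and 69.2% for neighboured peaks. Over 700 bases it was 86.4% for lone and 78.2% for neighboured peaks, with intervals of 81.8% to 90.3% and 76.8% to 79.6%. The intervals overlapped at 251 to 300 and at 401 to 500 bases. Up to 250 bases the intervals of lone and neighboured peaks overlapped in each of the 3 classes, and the lone share was the lower one from 151 to 200 bases (29.1% against 29.9%) and from 201 to 250 bases (32.3% against 35.7%). With neighboured peaks reweighted to the widths of lone peaks, the shares were 48.6% for lone and 44.9% for neighboured peaks.

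**Figure D2:**
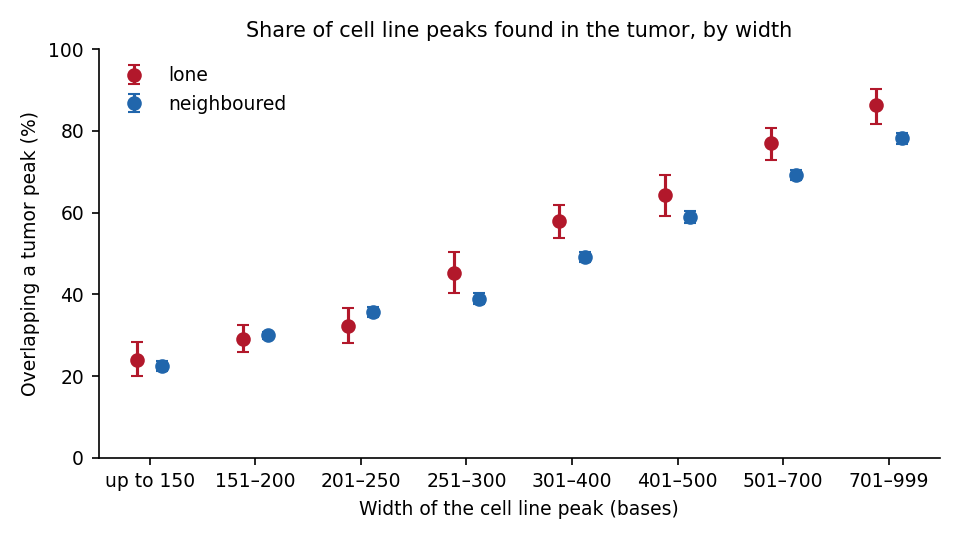
Share of cell line H3K27ac peaks that overlapped a tumor peak (percent, y axis) in 8 classes of peak width (bases, x axis), for lone (red) and neighboured (blue) peaks with exact 95% intervals. Lone peaks go from 24.0% in the narrowest class to 86.4% in the widest, and lie above neighboured peaks in the 5 classes over 250 bases.

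Fold enrichment, the authors' value for each peak over the caller's own background, also differed between kept and unkept lone peaks. Its median was 5.73 in kept lone peaks (quartiles 4.24 and 8.02, highest 21.5) and 4.75 in unkept lone peaks (quartiles 3.89 and 6.11, highest 25.5). The median −log10 of the q-value was 14.3 in kept and 6.58 in unkept lone peaks. With peaks under 1000 bases split into 5 equal classes by q-value, the strongest class held 700 lone peaks, of which 79.0% were kept, and the weakest 847, of which 27.5% were kept. Neighboured peaks behaved alike, with 72.6% kept in the strongest class and 28.3% in the weakest. Their median fold was 5.73 in kept and 4.89 in unkept peaks. The kept share did not rise steadily with fold, however. Across 10 equal classes by fold, 44.25% of lone peaks were kept in the lowest, 32.5% in class 3 and 68.4% in the highest. For neighboured peaks these shares were 46.5%, 34.4% and 64.1%. Peaks of low significance, lone or neighboured, were thus less often found in the tumor list. A tumor site below the caller's threshold cannot be told apart from one without the mark.

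Within the kept peaks, isolation left little trace in size. The median width was 370 bases in kept lone and 373 bases in kept neighboured peaks, and the median fold was 5.73 in both. The tumor peaks on kept lone peaks measured 327 bases at the median (quartiles 228 and 473) with a fold of 6.89, and those on kept neighboured peaks 333 bases with a fold of 7.02. Over the whole tumor list the medians were 239 bases and 5.56. Tumor peaks on lone sites thus stood at a median percentile of 68.9 of the tumor list by fold, and those on neighboured sites at 70.6. Both sets were chosen by overlap, which favours wide and strong tumor peaks, so values above the whole list are partly built in.

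Kept lone and kept neighboured peaks were both chosen by overlap, which limits how far apart the positions of maximum signal, the summits, can lie. Closeness of the summits is therefore partly built in, and no expected distance between them was computed. The median distance between them was 61 bases in kept lone peaks (interval 56 to 66, quartiles 24 and 129), against 96 bases in kept neighboured peaks (interval 94 to 98, quartiles 39 and 193). The summits were within 50 bases in 43.8% of kept lone peaks (797 of 1818, interval 41.5% to 46.2%) and in 30.9% of kept neighboured peaks (interval 30.3% to 31.6%). Within 150 bases, about the length of DNA on a nucleosome, the shares were 79.6% for lone and 65.7% for neighboured peaks. The summits were thus closer in kept lone than in kept neighboured peaks. Part of this difference is built in as well, because neighboured peaks can share 1 tumor summit and lone peaks cannot. The 20307 kept neighboured peaks had 18081 distinct nearest tumor peaks, and the 1818 kept lone peaks had 1818.

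The distance had no preferred direction. The cell line summit lay at the higher coordinate in 904 kept lone peaks, at the lower coordinate in 901 and at the same base in 13. The median distance was smaller for lone than for neighboured peaks in all 8 width classes, for example 48 against 86 bases from 301 to 400 bases wide. Among neighboured peaks whose nearest peak was over 1 kb away, a set defined after the values were seen, the median was 75 bases (interval 72 to 78). The 5770 kept peaks of this set had 5770 distinct nearest tumor peaks, so no tumor summit was shared within the set. Sharing with kept neighboured peaks outside the set was not counted. By distance to the nearest cell line peak, the median was largest, 107 bases, where that peak lay within 1 kb. Among lone peaks the medians of 60 bases at 25 to 50 kb, 63 bases at 50 to 100 kb and 56 bases beyond 100 kb were close to each other.

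**Figure D3:**
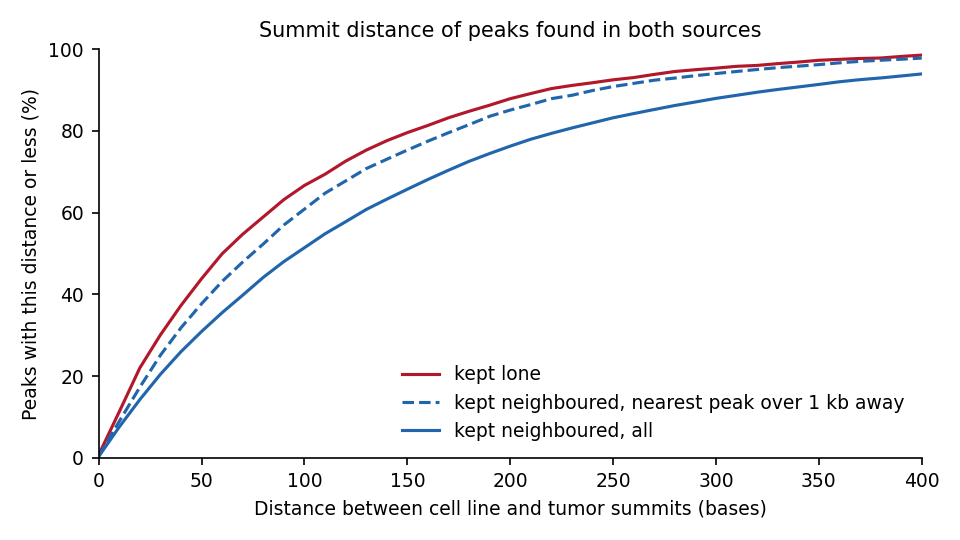
Cumulative share of kept peaks (percent, y axis) by the distance between the cell line and tumor summits (bases, x axis), for kept lone peaks (red), kept neighboured peaks with no peak within 1 kb (blue, dashed) and all kept neighboured peaks (blue, solid). The lone curve is the highest: at 100 bases it stands at 66.7%, against 60.9% and 51.4% for the neighboured curves.

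The peaks themselves overlapped over most of their length. The shared stretch had a median of 218 bases, which was 67.6% of the cell line peak and 78.2% of the tumor peak. In kept neighboured peaks these medians were 57.7% and 67.7%. Of the kept lone peaks, 391 (21.5%) lay wholly inside the tumor peak, 324 (17.8%) wholly enclosed it and 1103 (60.7%) overlapped it in part. Only 93 overlapped more than 1 tumor peak, 92 of them with 2 and 1 with 3. No tumor peak served 2 kept lone peaks as the nearest partner, but the rule left no room for this. The widest tumor peak, of 3337 bases, was shorter than the smallest distance the rule allows between lone peaks.

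The tumor peak was lone too in 713 of the 1818 kept lone peaks (39.2%, interval 37.0% to 41.5%), meaning that no other tumor peak lay within 25 kb of it. Over the whole tumor list 7.82% of peaks were lone. For kept neighboured peaks the tumor peak was lone in 5.77% of cases (1171 of 20307). This share counts cell line peaks, so a tumor peak shared by several is counted more than once. Among kept peaks with 1 other cell line peak within 25 kb it was 22.1% (610 of 2761), and with 2 such peaks 10.6%. Part of this contrast is built in. A neighboured site cannot have a lone tumor peak if its neighbour overlapped a different tumor peak within 25 kb of the first. Neighbours that overlapped the same tumor peak are not bound by this. Within lone sites, where the construction is the same, the share was 35.2% at 25 to 50 kb from the nearest cell line peak, 43.7% at 50 to 100 kb and 47.9% beyond 100 kb. Sites more isolated in the line were thus more often isolated in the tumor.

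These 713 mutually lone sites were much like the other kept lone peaks. Their median width was 365 bases in the line, against 376 bases where the tumor peak had neighbours, and their median fold was 5.87 against 5.62. In the tumor the widths were 299 and 344 bases and the folds 6.69 and 7.00, in the same order. The median summit distance was 55 bases (interval 50 to 63) in mutually lone sites and 64 bases (interval 59 to 70) in the others.

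At 1105 sites the overlapping tumor peak had another tumor peak within 25 kb of it. Tumor peaks were also counted within 25 kb of the cell line peak itself, the overlapping peak included. The sites with 1 such peak were not all the same as the mutually lone sites, which were judged from the tumor peak. By this count a kept lone peak had a median of 2 and at most 20 tumor peaks within 25 kb. The number was 1 for 713 sites, 2 for 466, 3 for 270, 4 for 132, 5 to 9 for 202 and 10 or more for 35. A kept peak has at least 1 by the rule, while an unkept peak can have 0, so their counts differ in part by construction. Unkept lone peaks had a median of 0, and 55.8% of them had no tumor peak within 25 kb, while 14.0% had one within 1 kb that did not reach them. Kept neighboured peaks had a median of 6, and 30.7% of them had 10 or more.

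**Figure D4:**
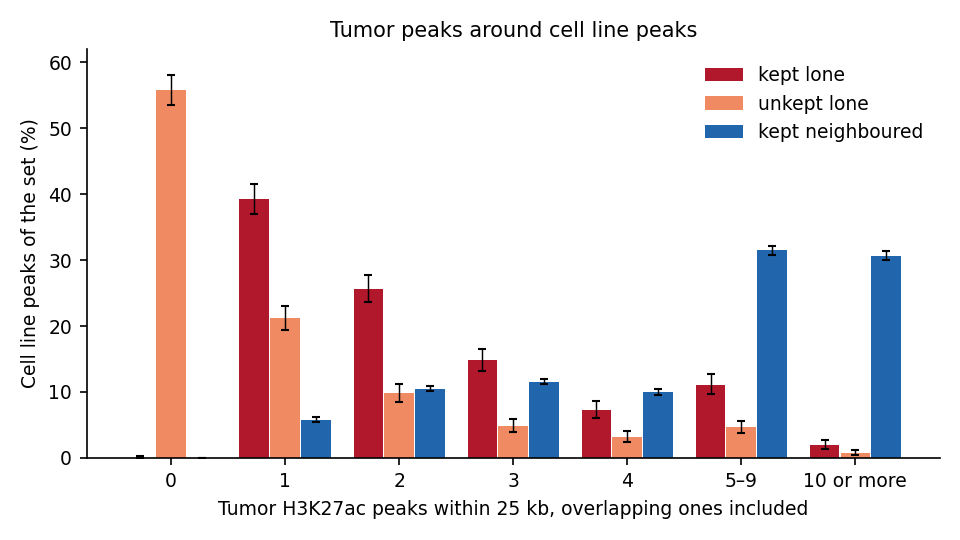
Share of cell line peaks (percent, y axis) by the number of tumor H3K27ac peaks within 25 kb, overlapping ones included (x axis), for kept lone (red), unkept lone (orange) and kept neighboured peaks (blue). Bars carry exact 95% intervals. Kept peaks have at least 1 by the rule. The largest class of kept lone peaks has only the overlapping tumor peak (39.2%), and the others have 2 or more. Unkept lone peaks most often have no tumor peak near (55.8%), and kept neighboured peaks mostly have 5 or more.

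Where the tumor had additional peaks, the shared site was the strongest of them in most cases with 2 or 3 tumor peaks, and in 49.1% of those with 4 or more. In 1064 kept lone peaks with a non-overlapping tumor peak within 25 kb, the overlapping tumor peak had the highest fold enrichment in 671 (63.1%, interval 60.1% to 66.0%) and was the widest in 696 (65.4%). With 2 tumor peaks in all the shared one had the highest fold in 311 of 426 cases, with 3 in 179 of 269, and with 4 or more in 181 of 369. The 2733 additional tumor peaks had a median fold of 4.86 and a median width of 206 bases, and the nearest lay a median of 4.60 kb away. The shared peak was chosen by overlap, which favours wide and strong tumor peaks, so these shares are a description only.

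The 5 sites with the most tumor peaks around them had 14 to 20 within 25 kb. At chr23:5362240-5362445 the cell line had a peak of 206 bases with a fold of 3.20 and no other peak for 117 kb, while the tumor had 20 peaks, of which the overlapping one was 607 bases wide with a fold of 15.1. At chr21:28825654-28826447 a cell line peak of 794 bases (fold 11.3) overlapped 2 of 18 tumor peaks. The sites at chr5:21491390-21491552, chr12:26853514-26853652 and chr16:31330870-31331578 had 17, 16 and 14 tumor peaks. By the way they were chosen, all 5 sat in tumor stretches of many peaks that held 1 listed site in the line.

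Strength in the line carried over only loosely to the tumor. Across the 1818 sites the rank correlation of the 2 fold enrichments was 0.27 (Spearman, Pearson on log2 values 0.27), and 0.19 across kept neighboured peaks. These are descriptions over sites of 1 library from each source, and the sites of a list share that library and its depth. Of the 455 sites in the highest quartile by cell line fold, 36.9% were in the highest quartile by tumor fold (interval 32.5% to 41.5%), against 14.7% of the 455 in the lowest quartile (interval 11.6% to 18.3%). The tumor peaks of these quartiles had median folds of 8.27 and 5.87.

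**Figure D5:**
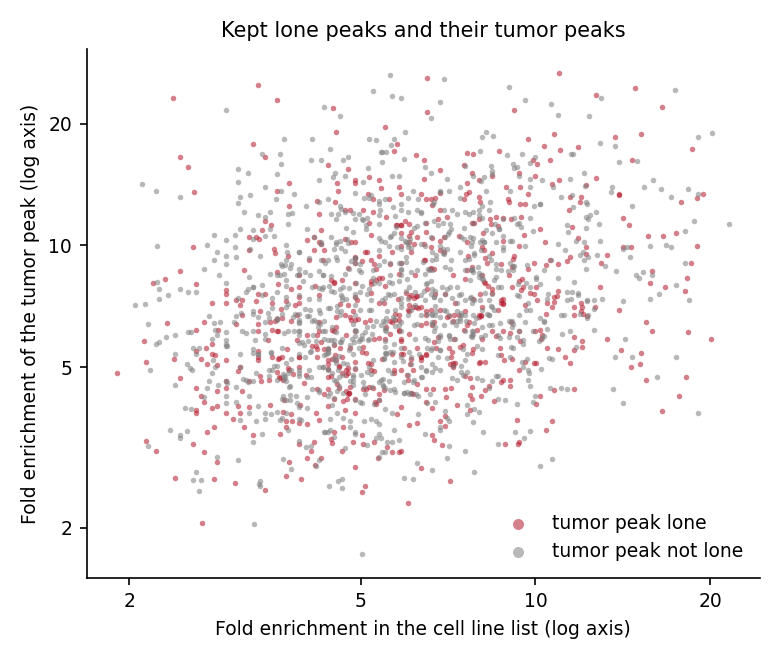
Fold enrichment of each of the 1818 kept lone peaks in the cell line list (x axis, log scale) and of its tumor peak in the tumor list (y axis, log scale), with sites whose tumor peak was lone in red and the others in grey. The cloud is broad, with a rank correlation of 0.27, and red and grey points occupy the same range.

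The 10 kept lone peaks with the highest cell line fold enrichment, from 18.7 to 21.5, had tumor folds anywhere from 3.85 to 18.9. The first, at chr25:14347586-14348112, had a fold of 21.5 in the line and 11.3 in the tumor, with summits 9 bases apart and the nearest cell line peak 189 kb away. The second, at chr9:39640431-39640948, had folds of 20.2 and 18.9. The third, at chr1:29624103-29624445, had a fold of 20.0 in the line but 5.87 in the tumor, where it ranked 1155 of the 1818. High signal in the line thus did not fix the rank in the tumor.

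The next 5 of these were at chr11:19922713-19923162 (19.4 in the line and 13.4 in the tumor), chr15:46647652-46648029 (19.1 and 18.5), chr16:57944015-57944783 (19.1 and 13.4), chr22:28429522-28430027 (19.1 and 3.85) and chr23:21786363-21786823 (19.00 and 13.1). The last were at chr21:13484719-13485710 (18.98 and 9.95) and chr5:30798336-30798846 (18.7 and 11.5). In 4 of the 10 the tumor peak was lone. Summit distances among the 10 were between 8 and 192 bases.

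The 10 sites with the smallest sum of ranks were strong in both sources. Their folds were between 12.7 and 20.2 in the line and between 17.4 and 24.5 in the tumor. First stood chr20:34620663-34621204, 542 bases wide and wholly inside a tumor peak of 602 bases, with folds of 17.4 in the line and 24.2 in the tumor and summits 24 bases apart. The chromosome 9 and chromosome 15 sites above ranked 2 and 3. At chr2:20662365-20662732 the folds were 16.5 and 22.0, the summits were 4 bases apart and the tumor peak was lone, with its nearest neighbour 59.0 kb away.

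The other 6 were at chr12:18020478-18021291 (14.8 in the line and 24.5 in the tumor), chr8:53618265-53618873 (18.6 and 17.4), chr23:25213346-25214310 (15.2 and 18.9), chr7:55568987-55569490 (12.95 and 23.1), chr3:9981153-9981672 (12.7 and 23.5) and chr17:33364052-33364457 (13.7 and 18.6). In 6 of the 10 the tumor peak was lone. The chromosome 3 site lay 152 kb from the nearest cell line peak, and its tumor peak was 959 bases wide. Their median summit distance was 23.5 bases, while it was 61.5 bases in the 10 with the highest cell line fold and 61 bases over all kept lone peaks.

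The farthest from any other cell line peak was the chromosome 22 site named above, with 676 kb on 1 side and 1001 kb on the other. Its tumor peak was narrow, 152 bases, with a fold of 3.85 and another tumor peak 0.325 kb away. The next were at chr12:7382378-7382751 (402 kb), chr11:7788192-7788406 (328 kb), chr4:20184862-20185127 (314 kb) and chr9:5362011-5362492 (283 kb). Their folds were low in the line, from 3.91 to 5.03, and from 4.28 to 12.2 in the tumor. In 4 of these 5 the cell line fold was thus below the kept lone median of 5.73. The chromosome 9 site, however, had a −log10 q of 16.8, above the kept lone median of 14.3.

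By distance to the nearest peak of either list, the most isolated site was chr10:41257460-41257960. It lay 268 kb from the nearest cell line peak and its tumor peak 229 kb from the nearest tumor peak, with folds of 9.45 in the line and 11.8 in the tumor and summits 21 bases apart. At chr4:52612213-52612425 the distances were 223 kb in both lists and the summits were 5 bases apart. The others were at chr22:29431183-29431322, chr24:11971852-11972835 and chr22:26034572-26034731. These 5 were single sites in long stretches without another listed peak in either source.

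A few sites matched poorly in position. The 5 largest summit distances were between 579 and 727 bases, at chr5:43367008-43367839 and the chromosome 24 site just named (727 bases each), chr4:55303064-55303649 (709), chr24:30278844-30279605 (618) and chr25:13552106-13552814 (579). All 5 cell line peaks were at least 586 bases wide, against a median of 370 bases over all kept lone peaks.

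Chromosome 4 stood out by its long distal part, a region known in zebrafish for repeats and heterochromatin. From 25 Mb onward 24 of 110 lone peaks were kept (21.8%, interval 14.5% to 30.7%), and in the first 25 Mb 52 of 79 (65.8%, interval 54.3% to 76.1%). All cell line peaks of these parts had kept shares of 27.1% and 61.1%, so the contrast was not limited to lone peaks. Without chromosome 4, 49.0% of lone peaks were kept.

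Sox10 binding was rare on kept lone peaks. Only 1 of the 1818 overlapped a sox10 peak of the cell line (0.06%, interval 0.001% to 0.31%), against 26 of 1923 unkept lone peaks (1.35%, interval 0.89% to 1.97%). Over the whole cell line list 0.459% of peaks did. Kept neighboured peaks did so as rarely, 5 of 20307 (0.02%), against 0.76% of unkept neighboured peaks, so the rarity was not particular to lone sites. The 1 kept lone site was chr22:33150243-33151213, 971 bases wide with a fold of 4.60 in the line and 4.73 in the tumor and summits 472 bases apart. Within 10000 bases of a sox10 peak lay 10 kept lone peaks (0.55%) and 39 unkept ones (2.03%), against 1.71% of all cell line peaks. Of lone peaks under sox10, 3.70% were kept (1 of 27, interval 0.09% to 18.97%), and of neighboured ones 2.66% (5 of 188). Lone or not, cell line peaks under 1000 bases wide that overlapped a sox10 peak were thus rarely found in the tumor. Wider peaks are not part of these 2 shares.

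The limits of the selection had peaks close on both sides. The widest kept lone peaks were 999 bases (chr9:14418668-14419666) and 998 bases (chr21:7545183-7546180), and the narrowest left out by width were 1000 bases (chr7:4295540-4296539) and 1003 bases (chr12:8266480-8267482). Nearest to the distance limit were chr21:22065039-22065302 (25015 bases) and chr20:40333234-40333433 (25022 bases) inside it, and chr9:26214214-26214729 (24987 bases) and chr5:9466348-9466870 (24984 bases) outside it. The shortest overlaps were 2 bases at chr20:52339651-52339789 and 3 bases at chr16:14298135-14298368. The nearest misses, at chr9:31701066-31701647 and chr13:3244540-3244805, touched a tumor peak with 0 bases between them and none shared.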

How the data were processed

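The submitters' processing notes name Bowtie as aligner, Zv9 as build and MACS2 version 2.0 as peak caller. The Bowtie version, control and threshold are not given in the sources used. The deposited lists, 1 per ChIP library, hold for each peak its position and summit, the fold enrichment (a ratio to the background the caller estimated), −log10 p-values and q-values, and a score. The authors' score was 10 times the −log10 q, truncated, in every peak. The highest q was 0.0497. Fold and q were not put on a common scale between the lists. Folds of the 2 lists were correlated and given side by side, and some alternatives used the same q limit for both lists. Input libraries were not analysed here.

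Python 3.11.15, numpy 2.4.6, pandas 2.3.3, scipy 1.17.1 and matplotlib 3.10.9 were used. Positions are 1-based on Zv9. A neighbour lay 25000 bases or less away, edge to edge. The nearest summit was taken where several tumor peaks overlapped. Chromosome spans end at the last peak of any list. Shares carry Clopper-Pearson 95% intervals and medians exact order-statistic intervals. The code was tested on simulated data. The rule, the named regions (10 by fold, 10 by rank sum, 5 or 2 by other extremes) and all lists were chosen with earlier results of these data known.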

Additional observations from a re-analysis of the deposited data

How the results depend on the processing

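Of 13 alternatives, 1 (unplaced scaffolds left out) left the lists as they were. Joining peaks and leaving out chromosome 4 were chosen after seeing the data, and the causes of the shifts below were not tested. With a neighbour distance of 10000 bases, 3639 lone peaks were kept (50.4%, 5.15 points above neighboured peaks) and 53.5% had a lone tumor peak. With 50000 bases, 756 were kept (44.8%, a difference of -1.34 points) and 30.6% had a lone tumor peak. In these alternatives the tumor peak was called lone at the changed distance too, so its share has another definition than the reported one. With peaks within 1000 bases joined first, 52.2% were kept (a difference of -1.15 points), 46.8% had a lone tumor peak and the median summit distance was 82 bases, against 103 for neighboured peaks. Requiring an overlap of at least 50% of the cell line peak, 32.9% were kept (5.94 points above) at a summit distance of 51 bases. With the cell line summit inside the tumor peak, it was 41.0% (6.68 points) at 48 bases. Under a width limit of 500 bases 40.8% were kept. With both lists at a −log10 q of 5 or more from the start it was 50.8%, with 43.0% on a lone tumor peak. With that limit applied after neighbours were counted it was 52.0%, a difference of 4.50 points. With the tumor list as long as the cell line list it was 45.7%, with 45.7% on a lone tumor peak. The other 40 of 65 values, 5 of them from the alternative without effect, stayed inside the interval of the reported value or, for the number of sites, within 1.5 times. The median summit distance of kept lone peaks was below that of kept neighboured peaks in all 13. No paired analysis was possible because each group has 1 library.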

Other observations

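Lone cell line peaks of 1000 bases or more numbered 138, and 117 of them were found in the tumor (84.8%, interval 77.7% to 90.3%), against 85.9% of all 2297 cell line peaks of that width.

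On chromosome 22, 3 of the most isolated kept lone peaks lay between 26034572 and 29431322. The sites starting at 28429522 and 29431183 were next to each other in the cell line list, with 1001 kb between them, and had cell line folds of 19.1 and 3.07. This stretch was noticed after the values were seen.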
